A study of Bos taurus with 15 samples.

Results

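The mRNAs of 3 inflammatory cytokines, IL1B (ENSBTAG00000001321), CXCL8 (ENSBTAG00000019716) and TNF (ENSBTAG00000025471), were described in the peripheral white blood cells (PWBC) of 15 beef heifers at weaning. These 3 genes were chosen by their Ensembl gene IDs for ARS-UCD1.2 in the raw count table, which lists 27607 genes, by a rule that uses no measured value. All 3 were among the 12270 genes with a CPM (counts scaled to a common library total) of 1 or more in 8 or more heifers. The names were assigned with the choice of IDs, because the count tables do not pair IDs with names, and positions and gene lengths are not given here.

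The heifers were Angus-Simmental crosses raised as replacements at 1 research center. They were bled at weaning, before breeding, and later all went through estrus synchronization, fixed-time artificial insemination (AI) and exposure to bulls. After the pregnancy check, 8 heifers were pregnant to AI (heifers 4, 6, 34, 40, 41, 43, 45 and 47) and 7 were not pregnant to AI (heifers 3, 33, 37, 39, 42, 44 and 48). The repository labels call the second group not pregnant to AI, and the study's methods describe its heifers as not pregnant when checked after AI and bull exposure. The outcome that parts the groups thus came later than the blood sample. Each heifer gave 1 RNA library of 100 bp paired-end reads, and the heifer was the replicate.

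IL1B, CXCL8 and TNF are acute inflammatory mediators that leukocytes make after receptors for microbes or tissue damage activate NF-kB. Their mRNAs are kept low in resting blood cells, rise quickly on activation and are short-lived, because AU-rich elements in them direct rapid decay. IL1B encodes the precursor of interleukin 1 beta, which inflammasomes activate by cleavage and which causes fever and activates endothelium. CXCL8, interleukin 8, is the chemokine that draws neutrophils through the receptors CXCR1 and CXCR2. TNF, tumor necrosis factor, is made mainly by monocytes and macrophages and by activated T cells, and is shed from the cell surface to act on its receptors in many tissues.

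The libraries held 15987111 to 24909038 counts on genes. Levels are given as CPM with TMM factors, a correction of each library for its size and composition, and they were compared between heifers, not between genes, since counts grow with transcript length. Between heifers of 1 group the counts differed more than sampling noise, with a chi-square per degree of freedom of at least 35.8 over 49 pairs. PWBC are a mixture of granulocytes, lymphocytes and monocytes, and in such a mixture fewer cells of a type and less mRNA per cell cannot be told apart. Because genes other than these 3 could not be named, the cell make-up was not checked against marker genes, and its part in the results was not tested. On the first principal component of all other genes, heifer 4 lay among the heifers not pregnant to AI and heifer 37 among those pregnant to AI. Values without both are given for the group comparisons of IL1B and CXCL8 and for the correlation of CXCL8 with TNF.

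IL1B was at a low level in 14 of the 15 heifers and high in 1. Over all heifers the level ranged from 1.41 CPM in heifer 45 to 18.1 CPM in heifer 47, with a median of 2.22 CPM. The highest value outside heifer 47 was 4.44 CPM, in heifer 4. Heifer 47 therefore stood 4.07-fold above the next heifer and 8.17-fold above the median. It held 319 IL1B counts, and the other 14 heifers held 25 to 92.

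Such counts carry a visible sampling error. The 25 counts of heifer 44 gave 1.62 CPM with a 95% interval from 1.05 to 2.39 CPM (exact binomial, counting error only), and the 319 counts of heifer 47 gave 18.1 CPM with an interval from 16.2 to 20.2 CPM. The high value thus lay far outside the counting error of any other heifer. Among the other 14 heifers the coefficient of variation was 38.5%, against 15.6% from counting alone, so these heifers also differed by more than counting error.

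CXCL8 had the widest spread that did not rest on 1 heifer. Its level ran from 11.3 CPM in heifer 6 to 145 CPM in heifer 48, a 12.8-fold range, with a median of 57.9 CPM. Heifer 43 was nearly as low as heifer 6, at 11.9 CPM. At the upper end heifers 39 and 3 had 131 and 114 CPM. The range was filled by heifers at all levels rather than by a single library. Counts of 233 to 2444 made counting error small, with 3.88% expected from counting and a coefficient of variation of 69.5% observed.

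TNF was the steadiest of the 3. It lay between 11.5 CPM in heifer 3 and 33.8 CPM in heifer 40, a 2.94-fold range, with a median of 24.7 CPM. The low end was formed by heifers 3, 34 and 33, at 11.5, 11.6 and 14.8 CPM, and the other 12 heifers lay at 18.3 CPM or above. With 207 to 620 counts, counting alone would give a coefficient of variation of 5.03%, and 29.4% was observed.

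**Figure D1:**
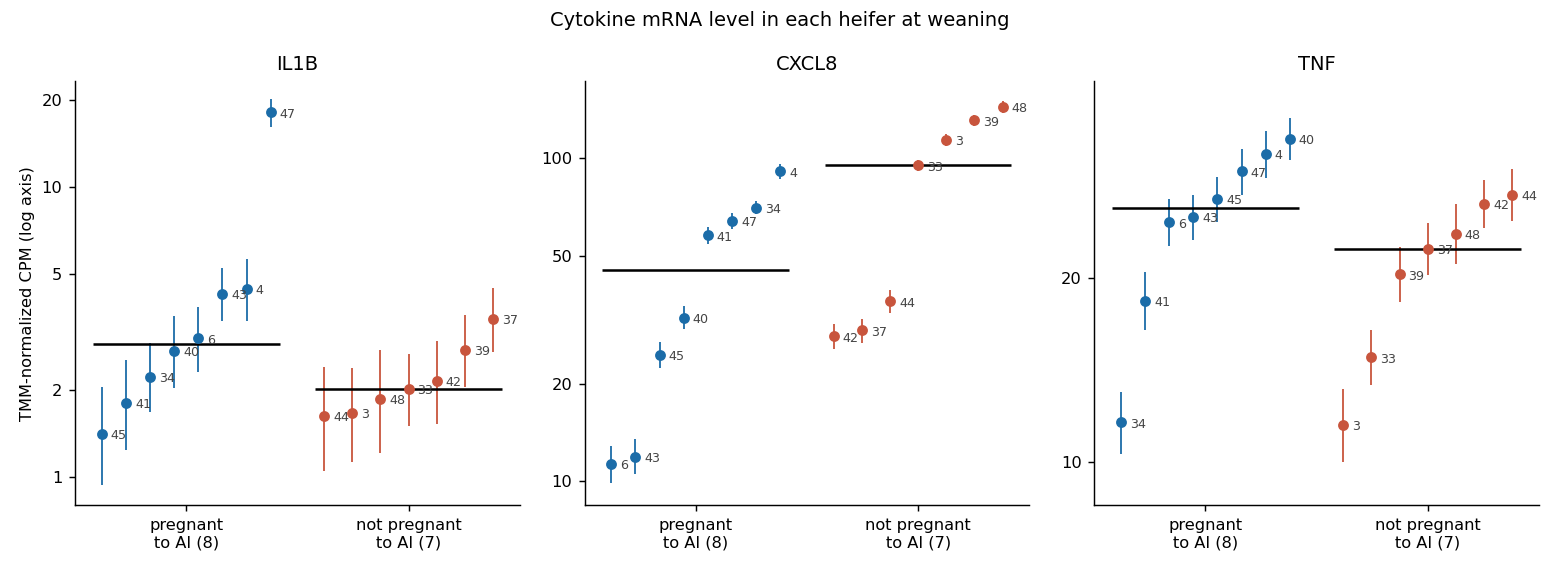
TMM-normalized CPM (log axis) of IL1B, CXCL8 and TNF in each heifer, by later pregnancy outcome, with points in rising order and labelled by heifer. Bars through points are 95% exact binomial intervals for counting error and horizontal lines are group medians; heifer 47 stands alone for IL1B at 18.1 CPM, CXCL8 runs from 11.3 to 145 CPM, and the groups overlap for all 3 genes.

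Set beside the other genes, CXCL8 was among the more variable transcripts, and so was IL1B with heifer 47 included. In edgeR the biological coefficient of variation, the spread between heifers of a group beyond counting error, was 61.0% for IL1B, 63.1% for CXCL8 and 29.7% for TNF. The median over the 12270 genes was 19.0%, and 97.7%, 98.0% and 79.3% of genes had a lower value than IL1B, CXCL8 and TNF. Low genes vary more, so the value fitted for all genes at the same level matters, and it was 35.8% at the level of IL1B, 20.1% for CXCL8 and 23.4% for TNF. CXCL8 had a larger SD of log2 CPM than 99.4% of the 2038 genes within 0.5 log2 units of its level. For IL1B that share was 89.4% of 1094 genes and for TNF 86.7% of 2117 genes. Without heifer 47 the SD of IL1B fell from 0.89 to 0.50, larger than in 80.3% of all genes and in 58.6% of the same 1094 genes, while the shares for CXCL8 and TNF were 99.4% and 86.8%.

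The comparison of the later pregnancy outcomes addresses whether blood cell transcripts at weaning differ between fertile and subfertile heifers. For none of the 3 cytokines did the difference pass the limits, set at 0.05 for the p adjusted over all genes (Benjamini-Hochberg) and at 0.5 in either direction for the log2 fold change, in edgeR's quasi-likelihood test. DESeq2 and limma-voom also passed 0 of the 3, beside 1116 and 730 of all 12270 genes. In edgeR, 5.85% of all genes tested passed these limits. Of all genes, 3.66% were higher and 2.19% were lower where heifers became pregnant to AI. This background depended on single heifers, with 81 of 12224 genes past the limits without heifer 48 and 1856 of 12192 without heifer 4, and 1 surrogate variable left 107 of 12270. Its balance moved too, to 917 higher and 96 lower with library size only and 847 higher and 1009 lower without heifer 4. At an unadjusted p under 0.05, 1 of the 3 cytokines (IL1B) passed, beside 34.4% of all genes. None of the 3 had groups that did not overlap, which was the case for 0.53% of genes.

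In IL1B the heifers pregnant to AI ranged from 1.41 to 18.1 CPM with a median of 2.87 CPM. The heifers not pregnant to AI ranged from 1.62 to 3.50 CPM with a median of 2.01 CPM. Heifers 47, 4 and 43, all pregnant to AI, were above every heifer of the other group, and heifer 45 of the same group was below every one of them. The means were 4.75 CPM ± 5.50 (SD, n = 8) and 2.22 CPM ± 0.679 (SD, n = 7). The log2 fold change was 1.08 (SE 0.48, 95% interval 0.07 to 2.10, edgeR adjusted p = 0.125).

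That difference depended on heifer 47. Without it the log2 fold change of IL1B was 0.35 (SE 0.27, 95% interval -0.22 to 0.92, edgeR adjusted p = 0.378), and the mean of the other 7 heifers pregnant to AI was 2.84 CPM ± 1.17 (SD, n = 7). The mean log2 CPM, which gives a single high value less weight, differed by 0.63 (exact permutation test, two-sided, p = 0.174, or 0.260 when adjusted over the 3 genes). With limma-voom the log2 fold change was 0.60 (adjusted p = 0.343). DESeq2 replaced 0 of the IL1B counts as outliers and gave 1.10 (adjusted p = 0.0713). Without heifers 4 and 37, where 2451 of 12096 genes passed the limits, the log2 fold change was 1.24 (SE 0.54, edgeR adjusted p = 0.0810). With heifer 47 left out as well it was 0.36 (SE 0.25, edgeR adjusted p = 0.285).

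CXCL8 differed in the opposite direction. Its level in the heifers pregnant to AI was between 11.3 and 91.1 CPM with a median of 45.0 CPM, and in the heifers not pregnant to AI between 28.1 and 145 CPM with a median of 95.1 CPM. Heifers 48, 39, 3 and 33, not pregnant to AI, were above every heifer pregnant to AI, and the other 3 of that group, heifers 42, 37 and 44, had 28.1, 29.3 and 36.1 CPM. Heifers 6, 43 and 45, pregnant to AI, were below every heifer of the other group. The groups overlapped between 28.1 and 91.1 CPM.

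Pregnancy to AI went with a mean CXCL8 level of 45.4 CPM ± 29.5 (SD, n = 8), and the other group had 82.7 CPM ± 50.6 (SD, n = 7). The log2 fold change was -0.87 (SE 0.48, 95% interval -1.89 to 0.16, edgeR adjusted p = 0.210). The interval holds 0 as well as values well below the estimate. The exact permutation test of mean log2 CPM gave p = 0.138 (two-sided, adjusted p = 0.260).

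Heifers 4 and 37 were at the ends of their groups for CXCL8. Heifer 4 had the highest level of the heifers pregnant to AI, at 91.1 CPM, and heifer 37 the second lowest of the other group. Without both, where 2451 of 12096 genes passed the limits, the log2 fold change was -1.23 (SE 0.48, edgeR adjusted p = 0.0542). Without heifers 4, 37 and 47 it was -1.40 (SE 0.50, edgeR adjusted p = 0.0433), which passed the limits. In that fit 2408 of 12000 genes passed, and these heifers were left out because of their expression values, so the pass is not independent evidence of a difference in CXCL8.

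TNF lay between 11.6 and 33.8 CPM in heifers pregnant to AI, with a median of 26.0 CPM. In heifers not pregnant to AI it lay between 11.5 and 27.4 CPM, with a median of 22.3 CPM. Heifers 40, 4 and 47, all pregnant to AI, were above every heifer of the other group, and heifer 3 was the lowest of all. The means were 25.3 CPM ± 7.33 (SD, n = 8) and 20.9 CPM ± 5.89 (SD, n = 7), with a log2 fold change of 0.27 (SE 0.22, 95% interval -0.19 to 0.74, edgeR adjusted p = 0.383). Scaling by library size only raised this value to 0.43 (adjusted p = 0.140), a setting that also moved the median over all genes from 0.01 to 0.18. Adding 1 surrogate variable as a covariate, a factor estimated from the counts, gave 0.44 (adjusted p = 0.177). Without heifer 3 it was 0.17 (adjusted p = 0.593).

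**Figure D2:**
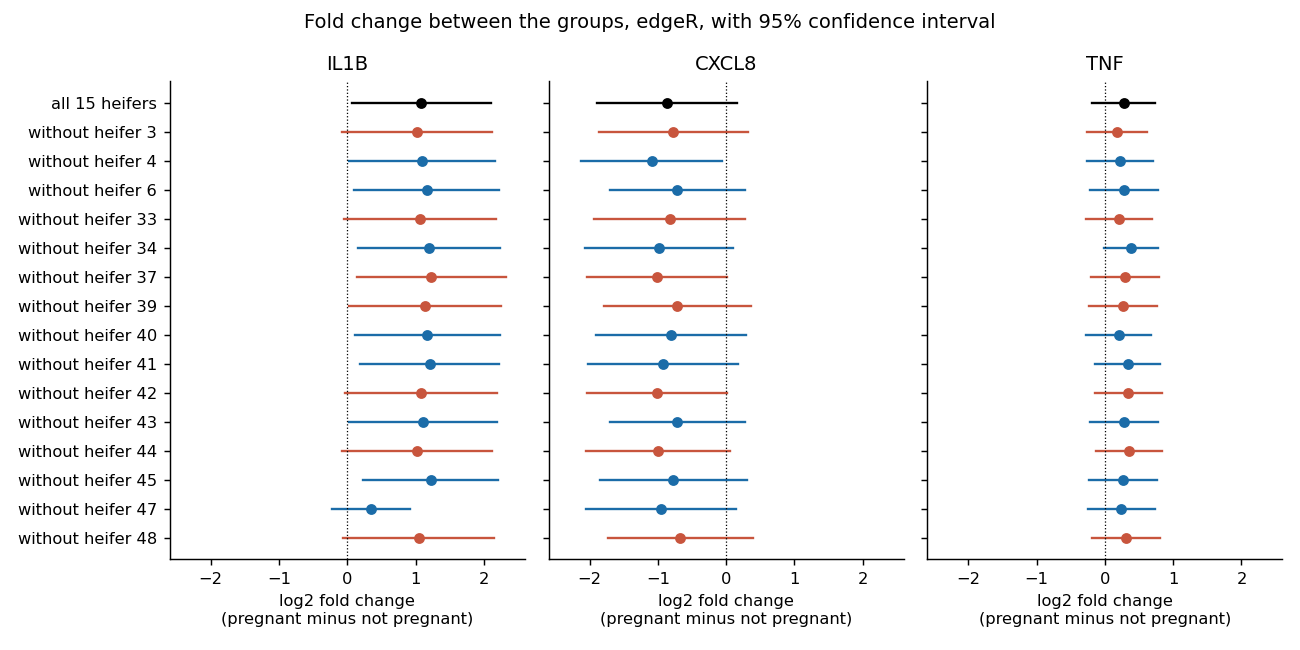
The log2 fold change between the groups (x axis, pregnant to AI minus not pregnant to AI) with its 95% confidence interval from edgeR, for all 15 heifers (black) and with each heifer left out (blue, a heifer pregnant to AI; red, a heifer not pregnant to AI). The estimate for CXCL8 stays below 0 and that for TNF above 0 in all 15 fits with a heifer left out, and that for IL1B falls from 1.08 to 0.35 without heifer 47.

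The 3 cytokines did not rise and fall together over the heifers. CXCL8 and TNF lay on opposite sides of their medians in 10 of the 15 heifers. The 4 heifers with the most CXCL8 (48, 39, 3 and 33) all had TNF below its median, and the 2 with the least (6 and 43) had TNF within 0.03 log2 units of it. Heifer 3 had CXCL8 0.98 above and TNF 1.10 below the median on the log2 scale. Heifers 4 and 47 were above the median in all 3 genes, while heifer 41 was at or below it in all 3.

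Across the 15 heifers the correlation of log2 CPM between CXCL8 and TNF was r = -0.417 (permutation test, p = 0.122, adjusted p = 0.226 over 3 pairs) and rho = -0.393 (permutation test, p = 0.149, adjusted p = 0.394). Without heifers 6 and 43, which were farthest from the CXCL8 median, it was r = -0.451 (permutation test, p = 0.122). Without heifers 4 and 37 it was r = -0.520 (permutation test, p = 0.0684). Within the heifers pregnant to AI it was r = -0.196 (exact permutation test, p = 0.669), and within the others r = -0.558 (exact permutation test, p = 0.213). All these values were negative and none passed 0.05.

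IL1B and TNF had r = 0.391 (permutation test, p = 0.151, adjusted p = 0.226) and rho = 0.307 (permutation test, p = 0.262, adjusted p = 0.394). Without heifers 47 and 4 this was r = 0.227 (permutation test, p = 0.452). Within the groups it was r = 0.390 (exact permutation test, p = 0.303) in heifers pregnant to AI and r = 0.196 (exact permutation test, p = 0.697) in the others. IL1B and CXCL8 had no detectable relation over all heifers, with r = -0.0707 (permutation test, p = 0.816, adjusted p = 0.816) and rho = -0.132 (permutation test, p = 0.639, adjusted p = 0.639). Without heifers 47 and 4 it was r = -0.468 (permutation test, p = 0.106), and in the groups r = 0.197 (exact permutation test, p = 0.681) and r = -0.271 (exact permutation test, p = 0.540).

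**Figure D3:**
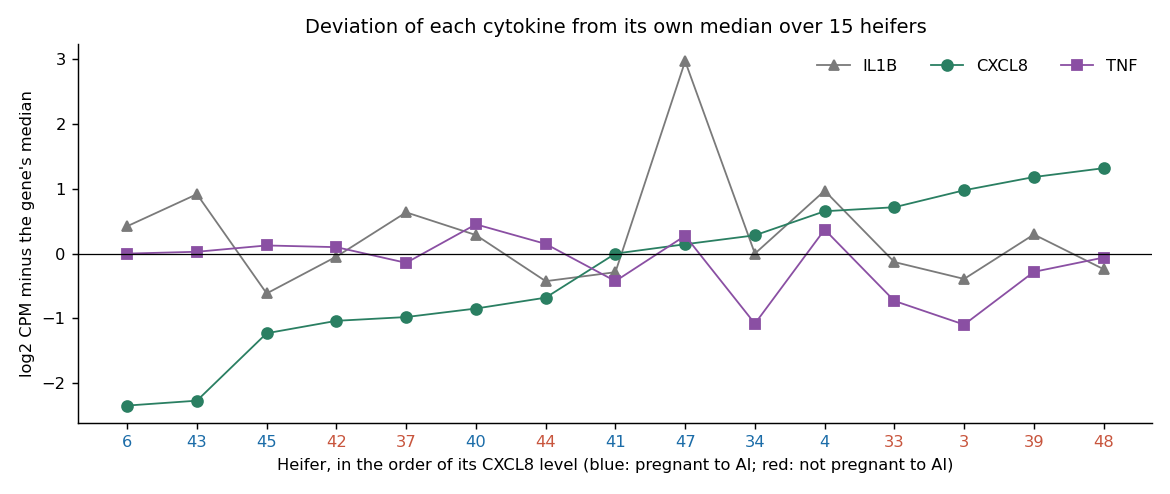
The log2 CPM of IL1B, CXCL8 and TNF in each heifer minus the median of that gene over the 15 heifers (y axis), with heifers in the order of CXCL8 and their numbers coloured by outcome. The TNF line does not follow CXCL8 upward, and the single IL1B peak of 2.97 is heifer 47.

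**Figure D4:**
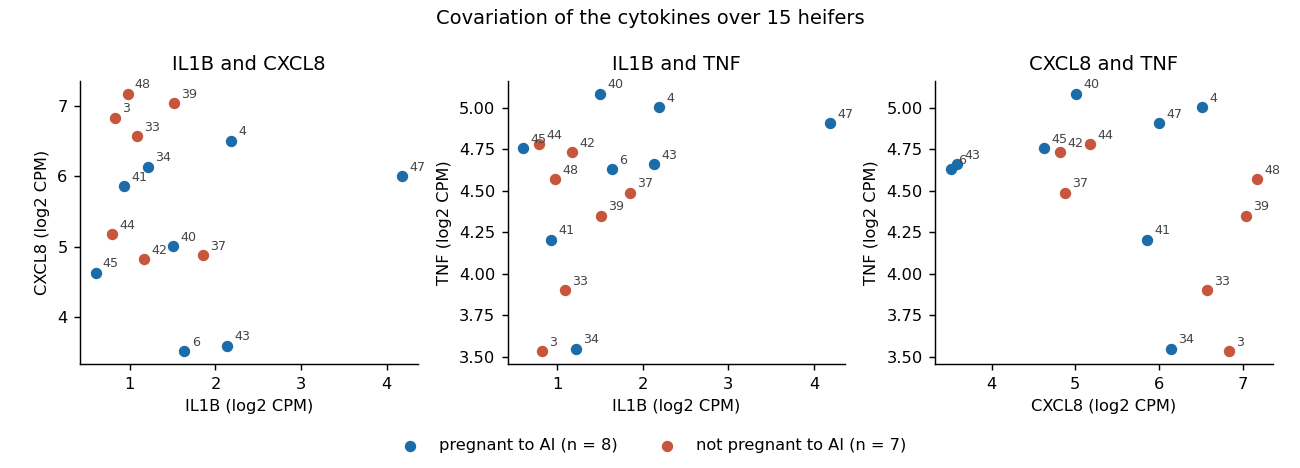
Log2 CPM of each pair of cytokines over the 15 heifers, 1 point per heifer, labelled by number and coloured by outcome. CXCL8 and TNF have r = -0.417, IL1B and TNF r = 0.391, and IL1B and CXCL8 r = -0.0707, with heifer 47 far to the right on the IL1B axis.

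The profile of each cytokine was then set against the rest of the transcriptome. Likeness was the Pearson correlation of log2 CPM over the 15 heifers, given as a description without a test, and the genes found are known by ID only. A gene had a median of 395 other genes with a correlation past 0.7 in either direction. CXCL8 had 839 such genes, 529 positive and 310 negative, more than 59.4% of genes had. TNF had 95 and IL1B 82.

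For CXCL8 the most similar genes were ENSBTAG00000005042 (r = 0.906), at 10.6 to 47.0 CPM, and ENSBTAG00000049000 (r = 0.901), at 0.242 to 8.71 CPM. An opposite profile was closer still, in ENSBTAG00000048918 (r = -0.924), which had a narrow range of 5.86 to 9.30 CPM. Neither of the similar genes passed the limits between the groups, with log2 fold changes of -0.75 (SE 0.31, edgeR adjusted p = 0.103) and -1.29 (SE 0.57, edgeR adjusted p = 0.122). Of the 839 genes 75, or 8.94%, passed, beside 5.85% of all genes. Among the genes past 0.7 with IL1B it was 6 of 82, or 7.32%, and with TNF 0 of 95. These genes were picked by likeness over the same heifers, so the shares only describe them.

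TNF was most like ENSBTAG00000012529 (r = 0.897), a gene of 0.166 to 2.67 CPM, and ENSBTAG00000009863 (r = 0.893), at 41.1 to 136 CPM. The most opposite profile was that of ENSBTAG00000039719 (r = -0.810), at 506 to 810 CPM. The similar genes had log2 fold changes of 0.15 (SE 0.46, edgeR adjusted p = 0.842) and 0.24 (SE 0.26, edgeR adjusted p = 0.517) between the groups. IL1B itself came at place 891 and CXCL8 at place 11545 of the 12269 other genes in likeness to TNF.

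The genes most like IL1B were ENSBTAG00000000559 (r = 0.915) and ENSBTAG00000008441 (r = 0.894), and the most opposite was ENSBTAG00000027390 (r = -0.815). The similar genes were both highest in heifer 47, with 14.1 and 48.3 CPM against at most 3.48 and 11.2 CPM in any other heifer. The opposite gene was lowest in heifer 47, at 64.9 CPM, in a range up to 122 CPM. Without heifer 47 the correlations were 0.673, 0.570 and -0.552, and of the 82 genes past 0.7 only 5 were still past it in the same direction. The likeness of genes to IL1B thus rested on heifer 47. For CXCL8 and TNF, 835 of 839 and 88 of 95 were still past 0.7 without that heifer, and the number past it rose to 1255 for CXCL8 and 150 for TNF.

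Heifer 47 did not stand apart across the transcriptome in the way it did for IL1B. In heifer 47, 16 genes were highest of all heifers and at least 4-fold above the median, and over the 15 heifers this number ran from 0 in heifer 42 to 43 in heifers 39 and 48. By log2 height above the median of the gene, IL1B was at place 2 of all genes in heifer 47. Its CXCL8 and TNF levels were 0.14 and 0.28 above their medians on the log2 scale.

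The levels were also compared with measures of the libraries and with the first 2 principal components of all other genes, which held 38.3% and 9.03% of the variance. This gave 15 relations, over which p-values were adjusted. TNF was lower in libraries with more counts on genes, with r = -0.627 (permutation test, p = 0.0128, adjusted p = 0.0637) and rho = -0.575 (permutation test, p = 0.0278, adjusted p = 0.104). Without heifers 33 and 34, the deepest libraries, it was r = -0.358 (permutation test, p = 0.233), so the size of r over all heifers depended on them. Within the groups it was r = -0.687 (exact permutation test, p = 0.0584) and r = -0.608 (exact permutation test, p = 0.147), negative in both. The part of depth in the TNF values was not tested.

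TNF moved against the second component, with r = -0.799 (permutation test, p = 0.00015, adjusted p = 0.00225) and rho = -0.654 (permutation test, p = 0.0101, adjusted p = 0.0760). Without heifers 3 and 41 it was r = -0.714 (permutation test, p = 0.00408). Within heifers pregnant to AI it was r = -0.752 (exact permutation test, p = 0.0220, adjusted p = 0.330) and within the others r = -0.858 (exact permutation test, p = 0.00972, adjusted p = 0.146). Heifer 3 had the highest score, 27.1, and the lowest TNF, and heifer 40 the lowest score, -25.8, and the highest TNF.

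CXCL8 moved with the first component, with r = 0.698 (permutation test, p = 0.00484, adjusted p = 0.0363) and rho = 0.693 (permutation test, p = 0.00583, adjusted p = 0.0760). Without heifers 48 and 39 it was r = 0.565 (permutation test, p = 0.0463). Within heifers pregnant to AI it was r = 0.575 (exact permutation test, p = 0.127, adjusted p = 0.636) with rho = 0.429 (exact permutation test, unadjusted p = 0.299). Within the others it was r = 0.707 (exact permutation test, p = 0.0605, adjusted p = 0.452) with rho = 0.821 (exact permutation test, unadjusted p = 0.0341). With deviations from the group means over all 15 heifers it was r = 0.632 (permutation test, p = 0.00783).

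On this component the heifers lay on both sides of a gap, with 8 between -49.3 and -13.3 and 7 between 10.5 and 52.3. The 8 heifers on the lower side, 7 pregnant to AI and heifer 37, had a median of 30.7 CPM of CXCL8, with a range of 11.3 to 70.4 CPM. The 7 on the upper side, 6 not pregnant to AI and heifer 4, had a median of 95.1 CPM and a range of 28.1 to 145 CPM. Within the lower side CXCL8 and the component had r = 0.377 (exact permutation test, p = 0.371), and within the upper side r = 0.605 (exact permutation test, p = 0.165). Each side spans less of the component than all heifers do, and neither value passed 0.05. The TMM factor was 0.842 to 0.998 on the upper side and 1.0006 to 1.14 on the lower side. The relations of CXCL8 to the component and to this factor are therefore not separate results.

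CXCL8 tended to be lower in libraries with a larger TMM factor, with r = -0.557 (permutation test, p = 0.0335, adjusted p = 0.126) and rho = -0.618 (permutation test, p = 0.0162, adjusted p = 0.0808). Neither adjusted p passed 0.05. The CPM values are themselves divided by this factor, so level and factor are not independent. With scaling by library size only it was r = -0.472 (permutation test, p = 0.0765). With deviations from the group means it was r = -0.426 (permutation test, p = 0.115). Without heifers 48 and 43 the TMM-scaled values gave r = -0.319 (permutation test, p = 0.285), so the size of r over all heifers depended on them. Within heifers pregnant to AI it was r = -0.258 (exact permutation test, p = 0.545, adjusted p = 0.817) with rho = -0.190 (exact permutation test, unadjusted p = 0.665). Within the others it was r = -0.642 (exact permutation test, p = 0.132, adjusted p = 0.452) with rho = -0.821 (exact permutation test, unadjusted p = 0.0341). IL1B had no relation to these measures that passed 0.05, with r from -0.304 with the first component to 0.257 with the TMM factor.

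**Figure D5:**
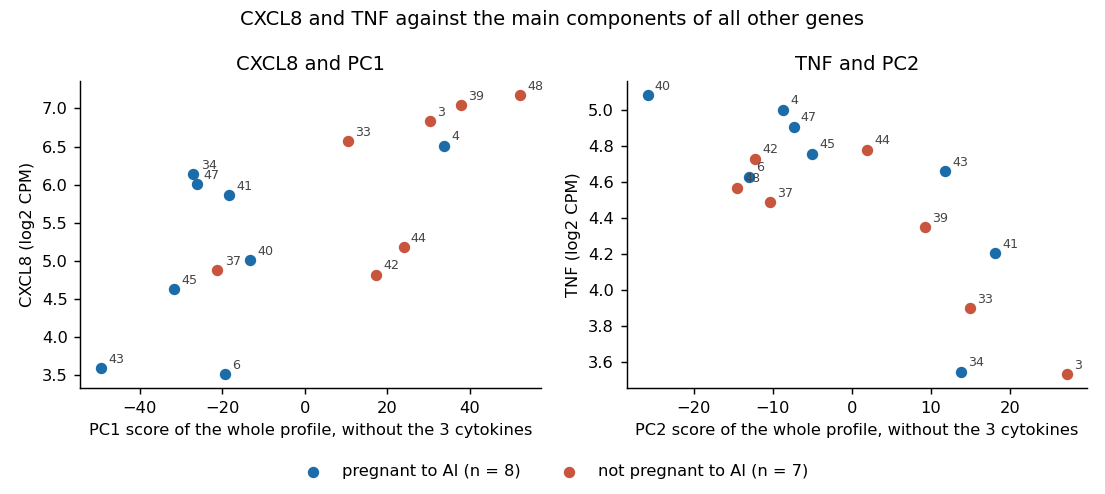
Log2 CPM of CXCL8 against the first principal component and of TNF against the second (x axes, scores without unit, computed without the 3 cytokines), 1 point per heifer. Heifers 4 and 37 lie on the side of the other group on the first component, and TNF falls from heifer 40 at -25.8 to heifer 3 at 27.1 on the second.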

How the data were processed

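Whole-transcriptome RNA-seq of PWBC from 15 heifers was used, grouped by the pregnancy outcome in the repository labels. The authors aligned reads with STAR 2.7.5 to ARS-UCD1.2 and deposited raw counts per gene, not normalized. They also deposited CPM values, made with edgeR 3.28.1 after a CPM filter. These equalled the raw counts scaled over the 12270 kept genes, and served as a check. Here, the 12270 genes reaching a CPM of 1 in 8 or more heifers were kept, TMM-normalized and tested with edgeR 4.0.16 (quasi-likelihood, Benjamini-Hochberg adjustment) in R 4.3.3. The SE was taken from the fold change and its F statistic. Log2 CPM had a prior count of 2. Correlations used 100000 permutations, or all of them within groups (Python 3.11.15, numpy 2.4.6, scipy 1.17.1, pandas 2.3.3). Alternatives used DESeq2 1.42.0, limma 3.58.1 and sva 3.50.0, other scalings and filters, and heifers left out.

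The 3 genes, the lists and the tests were chosen with earlier results of these data known. The named genes were the 3 cytokines and those with the highest and lowest correlation with each, of which 3 IDs per cytokine are printed. Planned lists of pathway and cell marker genes were not used here, since IDs were not paired with names. Comparisons with library measures and principal components were added after the data were seen.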

Additional observations from a re-analysis of the deposited data

Results flagged for a closer look

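In the heifers pregnant to AI, the IL1B level of heifer 47, 18.1 CPM, was far from the other 7, the next of which had 4.44 CPM. Its gap was 0.818 of the range of the group, above the critical value of 0.526 for 8 heifers. On the log2 scale the gap was 0.558 of the range, also above it. Gaps were examined in 6 sets of values, 3 genes in 2 groups, and 1 set had such a gap. By chance about 1 set in 20 would.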

How the results depend on the processing

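The log2 fold changes kept their direction in the 15 fits that each left out 1 heifer and in the 14 other alternatives. None passed the limits except CXCL8 without heifers 4, 37 and 47 (-1.40), a setting chosen after seeing the data. Robust dispersion, DESeq2 without outlier handling and the exact permutation of log2 CPM were also chosen after seeing the data. In the fits without heifers 4 and 37, these heifers were likewise left out because of their expression values in these data. Leaving out 1 heifer gave 0.35 to 1.23 for IL1B, -1.09 to -0.68 for CXCL8, and 0.17 to 0.38 for TNF. Over all alternatives apart from Bonferroni adjustment, the adjusted p ran from 0.0713 to 0.378 for IL1B, 0.0433 to 0.392 for CXCL8 and 0.140 to 0.594 for TNF. Of the correlations, IL1B with CXCL8 changed sign with deviations from the group means (0.0893) and ran from -0.282 to 0.0245 when single heifers were left out; the cause was not tested. In the latter fits IL1B with TNF ran from 0.335 to 0.460 and CXCL8 with TNF from -0.518 to -0.321. No paired analysis was possible because no heifer is in both groups. The neutrophil marker covariate, the pathway gene count and the marker comparisons were not run. Depth limits IL1B, with 25 to 92 counts in 14 heifers.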
